A study of Mus musculus with 5 samples.

Results

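The genes described here encode translation initiation and elongation factors. They were chosen by name, as every gene whose mouse symbol starts with Eif or Eef followed by a digit. Eif2ak2 and symbols marked -ps, for pseudogenes, were left out. In the RefSeq annotation 72 symbols met this rule, and 69 of them had a row among the 27179 genes counted. Eef1akmt4, Eef1akmt4-ece2 and Eif4a3l2, which RefSeq lists as a pseudogene, had none. The rule itself uses no measured value, but the set was drawn up with earlier results of these data known.

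Translation starts when the small ribosomal subunit, loaded with the initiator tRNA by the GTPase eIF2 and held by the scaffold eIF3, is brought to the capped 5′ end of an mRNA by the eIF4F complex and scans to a start codon. The exchange factor eIF2B recharges eIF2 with GTP, and the eIF2 kinases block that step under stress. During elongation eEF1A delivers aminoacyl-tRNA, eEF2 moves the ribosome along, and eIF5A relieves stalling. Blood stem cells are known for a low rate of protein synthesis.

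The study asked where acetylation of lysine 14 of histone H3 (H3K14ac), a mark found at active start sites, differs when the acetyltransferase HBO1 (encoded by Kat7) is deleted in LSK cells. LSK cells are the lineage-negative, Sca-1-positive, Kit-positive fraction of mouse bone marrow in which blood stem cells and early progenitors are found. CUT&Tag was used, in which Tn5 transposase tethered to an antibody fragments and tags the DNA beside the mark. The knockout (KO) group held 2 libraries from male C57BL/6 mice of genotype Hbo1def/def; T/+, and the control group held 2 libraries from heterozygous Hbo1def/+; T/+ mice. The labels spell out neither def nor T. Both groups received poly(I:C) to induce Mx1-cre, so recombination was driven by an interferon-inducible promoter that acts in many cell types, and the controls carried the def allele on one chromosome. The labels do not say if each library had its own mouse, so the p-values reflect spread among these 4 samples only, part of which may be technical. In bulk material, fewer cells carrying the mark and less mark per cell cannot be told apart.

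Reads were counted over the 5 kb upstream of each start site, over the gene body and over the 5 kb downstream of the end. Total counts ranged from 4723549 to 12386891 per library over gene bodies, from 869859 to 1164409 upstream and from 677213 to 1260351 downstream, and the KO libraries were the shallower ones in each region class. Of all counted reads, 16.48% and 11.39% lay upstream in KO libraries and 7.86% and 8.43% in controls. Over gene bodies the shares were 73.04% and 79.01% in KO libraries and 83.63% and 82.64% in controls. Over gene bodies, H3K14ac was summed for marker genes of LSK cells and of mature lineages. In CPM, reads scaled to the library's total with TMM factors, the summed level of 8 LSK genes was 22.8 and 15.3 CPM per kb in KO libraries and 12.4 and 12.2 in controls. For 8 lineage genes the sums were 9.92 and 9.53 CPM per kb in KO libraries and 11.9 and 11.4 in controls, with Hba-a1 and Hbb-bs at 0 reads in all 4 libraries and Ly6g at 2.89 to 4.34. The sums of the 2 lists were thus close in controls, and the LSK sum was the larger in both KO libraries. Of the LSK genes Flt3, Gata2, Ptprc, Runx1 and Spi1 were higher in KO by the test used below, as were 23.1% of all gene bodies. Kit, Cd34 and Ly6a, which encodes Sca-1, did not pass. Kit had 1.63 and 1.53 CPM per kb in KO libraries and 1.61 and 1.59 in controls. Ly6a was lower in both KO libraries, at 3.62 and 3.61 against 4.16 and 4.2 in controls. None of the lineage genes passed, and Hba-a1 and Hbb-bs could not be tested. The part of cell composition in the results below was not tested.

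H3K14ac was higher in KO cells at many translation factor genes, upstream and over the gene body, and most role groups had members that rose in at least one of these regions. The eIF2 kinases had none with the TMM scaling used here. Under some other settings given below Eif2ak3 passed upstream, and Eif2ak4 passed upstream and over its body. The largest changes over gene bodies were at Eif5a, Eif1, Eif4a1, Eef2 and Eif4a2, short genes with few reads in the controls. Eif5a and Eif4a2 had both controls at the minimum count for testing. Eif1, Eif4a1 and Eef2 did not, and were tested because of their KO reads. Eif2s3x and Eif2s3y, the X- and Y-linked genes of the eIF2 gamma subunit, had the smallest upstream p-values of the members together with Eif2b4 and Eif5b, while the largest fitted upstream fold, that of Eef2, rests on few control reads. At none of these upstream regions did both controls reach the minimum count for testing. They were tested because of their KO reads, so their direction was nearly fixed by that filter. Both flanks and the body fell at Eif2c5, and 1 further member, Eif4a3l1, fell upstream and over its body. As no spike-in is given in the sources used here, a fold depends on how libraries were scaled. The share of reads upstream of start sites was also larger in both KO libraries. The part of such a library-wide difference in these rises was not tested.

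Upstream of the start site 64 members had enough reads to be tested, and 27 of them (42.2%) were higher in KO at an adjusted p below 0.05 with the quasi-likelihood test of edgeR, while 2 were lower. Of all 23200 upstream regions tested, 24.0% were higher and 14.3% lower. That split depends on scaling: with totals pooled over region classes 33.1% were higher and 1.97% lower, and with scaling on olfactory and vomeronasal receptor genes, a set with no known use in blood, 31.0% were higher and 0.168% lower. The median log2 fold of the members was 1.02, against -0.09 for all genes, and both KO libraries lay above both controls at 49 members and below both at 7 (37.8% and 39.9% of all genes). The members mostly have CpG-rich start sites, defined as an observed over expected CpG ratio of at least 0.6 between 250 bases before and 50 after the start, and among all genes with such a start 43.2% were higher and 3.42% lower. The members' share upstream was thus near that of genes with a CpG-rich start in general. Single libraries weighed heavily on the calls. With any 1 left out, most or all upstream calls were lost, among the members and among all genes. The members' median log2 fold was 0.8 without KO replicate 1 and 1.43 without KO replicate 2. It was 0.95 without control replicate 1 and 1.17 without control replicate 2. For all genes the medians were 0.01, -0.08, -0.1 and -0.04 in the same order.

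Over gene bodies 67 members were tested, of which 37 (55.2%) were higher in KO and 2 lower. Among 21393 gene bodies in all, 23.1% were higher and 15.2% lower (scaled by library totals 29.8% and 4.63%, by receptor genes 20.7% and 0.893%, by totals pooled over classes 26.5% and 6.36%), and among those with a CpG-rich start 36.5% were higher and 7.92% lower. The members' median log2 fold was 1.18, against 0.02 for all genes. At 57 members both KO libraries lay above both controls and at 5 below both (40.6% and 39.4% of all genes). Calls became more numerous without KO replicate 2 and fewer without any other library, among the members and among all genes. The members' median log2 fold was 0.89 without KO replicate 1 and 1.48 without KO replicate 2. It was 0.99 without control replicate 1 and 1.45 without control replicate 2. For all genes the medians were 0.04, 0.03, 0.01 and 0.07 in the same order. The calls of Eif5a, Eif1, Eif4a1, Eif4a2, Eef2, Eef2kmt, Eif5, Eif4g2 and Eif1ad held whichever library was left out. Both controls of Eif1 and Eef2 lay below the minimum count for testing, so the direction of these calls was nearly fixed by that filter. The same holds, less strictly, for Eif4a1 and Eif5, whose control replicate 1 lay below it.

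**Figure D1:**
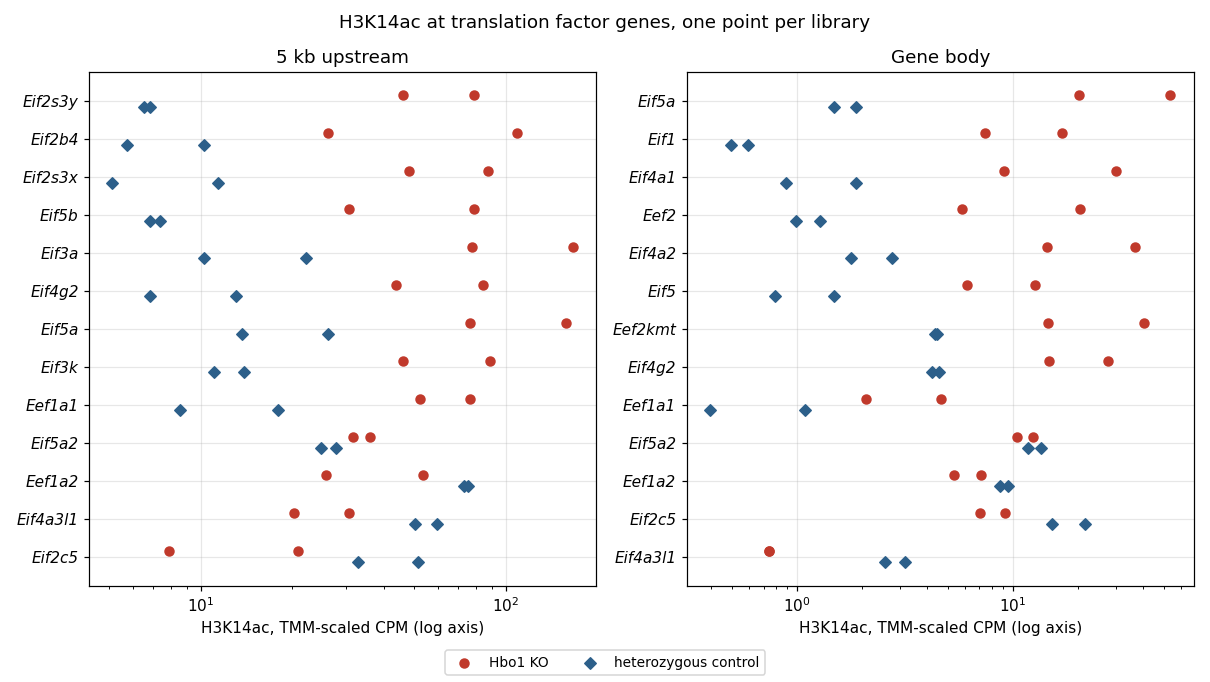
H3K14ac in CPM (log axis) at named members in each library, upstream on the left and over gene bodies on the right, with KO libraries as circles and heterozygous controls as diamonds. Eif5a over its body has 53.7 and 20.2 CPM in KO libraries and 1.48 and 1.88 in controls, while Eif2c5 and Eif4a3l1 have their KO circles left of the control diamonds.

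The counts per role group that follow are small and stand beside the shares of 43.2% upstream and 36.5% over the body among all CpG-rich starts. The 9 genes of start codon selection and scanning rose at 4 upstream regions and 6 gene bodies, and none fell. Eif1 (Entrez 20918, chromosome 11, 100319949 to 100322099, plus strand, GRCm38) encodes the small factor that keeps the scanning ribosome from starting at poor codons. Its gene body held 91 and 50 reads in KO libraries and 5 and 6 reads in controls, or 16.8 and 7.44 CPM in KO and 0.493 and 0.593 CPM in controls. The groups did not overlap. The means were 12.1 ± 6.62 CPM in KO and 0.543 ± 0.0705 CPM in controls (SD, n = 2 each). Its log2 fold with the standard error was 4.44 ± 0.63 (edgeR adjusted p = 6.1e-08), and errors of log2 folds below are standard errors too. Both controls lay below the minimum count for testing, so the direction over this body was nearly fixed by that filter. Upstream of Eif1 the levels were 52.8 and 30.6 CPM in KO and 13.7 and 19.6 CPM in controls, a log2 fold of 1.31 ± 0.48 (edgeR adjusted p = 0.0223). Eif5, the GTPase-activating protein of eIF2, had 12.7 and 6.1 CPM over its body in KO and 0.789 and 1.48 CPM in controls, and its log2 fold was 3.03 ± 0.58 (edgeR adjusted p = 3.4e-05). Control replicate 1 lay below the minimum count there, so Eif5 too was tested because of its KO reads.

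Eif5b, the GTPase that joins the ribosomal subunits, passed upstream and not over its body, and the difference between these regions was not tested. Upstream it had 78.6 and 30.6 CPM in KO and 6.85 and 7.36 CPM in controls, a log2 fold of 2.92 ± 0.53 (edgeR adjusted p = 1.8e-06). Both controls lay below the minimum count for testing there. This stretch also holds the start site of Txndc9, so its reads cannot be given to one gene. Over the 57.6 kb body of Eif5b the levels were 27.5 and 32.9 CPM in KO and 17.3 and 24.7 CPM in controls, and the log2 fold of 0.53 ± 0.34 did not pass (edgeR adjusted p = 0.215). The paralogs Eif1 and Eif1b stood apart upstream, where Eif1b had 35.9 and 31.7 CPM in KO and 25.7 and 31.1 CPM in controls (log2 fold 0.25 ± 0.46, edgeR adjusted p = 0.673). Over its body Eif1b passed as higher, as Eif1 did. Whether Eif1 and Eif1b differ from each other was not tested.

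Gene bodies of all 4 eIF2 genes (Eif2s1, Eif2s2, Eif2s3x and Eif2s3y) rose, with log2 folds from 1.44 to 2.27, and the upstream regions of Eif2s3x and Eif2s3y rose as well. Eif2s3x (Entrez 26905, chromosome X, 94188709 to 94212651, minus strand) had upstream levels of 87.6 and 48.1 CPM in KO and 5.14 and 11.4 CPM in controls, a log2 fold of 3.01 ± 0.51 (edgeR adjusted p = 4e-07). Eif2s3y (Entrez 26908, chromosome Y, 1010562 to 1049134, plus strand) had 78.6 and 45.9 CPM in KO and 6.85 and 6.54 CPM in controls, a log2 fold of 3.19 ± 0.53 (edgeR adjusted p = 1.7e-07). At neither gene did the groups overlap. Neither had both controls at the minimum count for testing, so both were tested because of their KO reads. The X and Y copies are alike in their exons, and how reads that map to several places were counted is not given in the sources used here.

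Eif2s1, whose product is the alpha subunit that the eIF2 kinases phosphorylate, had 16.1 and 11.3 CPM over its body in KO and 3.85 and 6.23 CPM in controls (log2 fold 1.44 ± 0.47, edgeR adjusted p = 0.0126). Upstream it had 60.7 and 60.1 CPM in KO and 27.4 and 32.7 CPM in controls, which do not overlap, but the log2 fold of 1.0 ± 0.47 missed the threshold (edgeR adjusted p = 0.0717). Of the 5 eIF2B genes 3 rose upstream and 1 over its body. Eif2b4 had 109 and 26.2 CPM upstream in KO and 10.3 and 5.72 CPM in controls, a log2 fold of 3.06 ± 0.52 (edgeR adjusted p = 2.9e-07), with a wide gap between the KO libraries and with the start site of Snx17 in the same stretch. Its controls did not both reach the minimum count for testing. Eif2b1 rose upstream by a log2 fold of 1.38 ± 0.47 (edgeR adjusted p = 0.0131), with 86.5 and 35 CPM in KO and 16.3 and 30.2 CPM in controls, and its stretch holds the start of Gtf2h3.

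The eIF2 kinases, which damp initiation under stress, did not pass upstream (Eif2ak3 and Eif2ak4 tested, Eif2ak1 with too few reads) or over their bodies with TMM. Upstream the log2 folds with TMM were 0.89 for Eif2ak3 (edgeR adjusted p = 0.117) and 1.05 for Eif2ak4 (edgeR adjusted p = 0.0549). With receptor scaling both passed, at 1.87 (edgeR adjusted p = 0.0238) and 2.02 (edgeR adjusted p = 0.0232). Both passed with pooled totals (edgeR adjusted p = 0.00949 and 0.00553), and neither with library totals (edgeR adjusted p = 0.233 and 0.143). Eif2ak4 alone also passed upstream with a correction for GC content (edgeR adjusted p = 0.0295) and with DESeq2 size factors (edgeR adjusted p = 0.0433). Over its body Eif2ak4 passed with library totals (log2 fold 0.9, edgeR adjusted p = 0.0193). It also passed there with pooled totals (edgeR adjusted p = 0.0455) and the GC correction (edgeR adjusted p = 0.0349). It did not with receptor scaling (edgeR adjusted p = 0.06) or DESeq2 size factors (edgeR adjusted p = 0.117). Over gene bodies their log2 folds with TMM lay between 0.18 (Eif2ak3, the kinase PERK) and 0.64 (Eif2ak1, the haem-regulated kinase), with both KO libraries above both controls at all 3. Eif2ak4, the kinase GCN2, rose in the 5 kb past its end, as given below. That stretch was not searched for starts of other genes.

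eIF3, the scaffold of the initiation complex, is encoded by 14 of the members. Upstream 7 of the 14 rose (50%, near the 43.2% of all CpG-rich starts) and over the body 9 of 13 rose (69.2%), and none fell past the threshold. Eif3a, the largest subunit, had 166 and 77.6 CPM upstream in KO and 10.3 and 22.1 CPM in controls, a log2 fold of 2.9 ± 0.56 (edgeR adjusted p = 7.4e-06). Over its body Eif3a had 34.7 and 13.4 CPM in KO and 7.1 and 9.09 CPM in controls, a log2 fold of 1.56 ± 0.42 (edgeR adjusted p = 0.00232). Eif3k had 88.7 and 45.9 CPM upstream in KO and 11.1 and 13.9 CPM in controls (log2 fold 2.41 ± 0.49, edgeR adjusted p = 2.2e-05), in a stretch that also holds the start of Map4k1.

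Within eIF3 the values were not uniform. Eif3h, which spans 78.9 kb, had a gene body log2 fold of -0.4 ± 0.29 with 66.7 and 75 CPM in KO and 102 and 84.3 CPM in controls (edgeR adjusted p = 0.263), and its log2 fold was 0.26 with scaling on receptor genes. Eif3f had 1.12 and 12 CPM upstream in KO and 12.8 and 12.3 CPM in controls (log2 fold -0.91 ± 0.61, edgeR adjusted p = 0.218), while its body passed as higher (log2 fold 1.29 ± 0.52, edgeR adjusted p = 0.0403). Eif3j1 had an upstream log2 fold of 1.57 ± 0.48 (edgeR adjusted p = 0.00548) and its short copy Eif3j2 one of -1.03 ± 0.47 (edgeR adjusted p = 0.0639), and the difference between them was not tested.

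Cap binding and helicase genes (eIF4F and its helpers, grouped by symbol) rose at 3 of 12 upstream regions and 8 of 13 gene bodies, with 1 lower in each. The 8 include Eif4a3, the exon junction helicase gene. The helicase gene Eif4a1 (Entrez 13681, chromosome 11, 69666936 to 69672423, minus strand) had 30.1 and 9.08 CPM over its body in KO and 0.888 and 1.88 CPM in controls, a log2 fold of 3.8 ± 0.54 (edgeR adjusted p = 8.5e-08). Its paralog Eif4a2 had 36.9 and 14.4 CPM in KO and 2.76 and 1.78 CPM in controls, a log2 fold of 3.49 ± 0.48 (edgeR adjusted p = 2.9e-08). Neither pair of groups overlapped. Control replicate 1 of Eif4a1 lay below the minimum count for testing, so that body was tested because of its KO reads. Upstream, Eif4a1 passed (log2 fold 2.31 ± 0.54, edgeR adjusted p = 0.00028) and Eif4a2 did not (0.1 ± 0.52, edgeR adjusted p = 0.89), though a difference between these paralogs was not tested.

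The scaffold genes Eif4g1 and Eif4g2 rose in both regions. Eif4g2, which encodes a scaffold that does not bind eIF4E, had 84.2 and 43.7 CPM upstream in KO and 6.85 and 13.1 CPM in controls (log2 fold 2.66 ± 0.5, edgeR adjusted p = 4.7e-06), and 27.5 and 14.7 CPM over its body in KO and 4.24 and 4.55 CPM in controls (log2 fold 2.26 ± 0.44, edgeR adjusted p = 5.2e-05). Eif4g1 rose by log2 folds of 1.38 ± 0.48 upstream (edgeR adjusted p = 0.0156) and 1.52 ± 0.41 over its body (edgeR adjusted p = 0.00308). The cap-binding protein gene Eif4e had too few reads upstream to be tested, 2 and 3 in KO libraries and 4 and 2 in controls. Over its body it had 47.1 and 34.1 CPM in KO and 28.1 and 23.4 CPM in controls, without overlap, and a log2 fold of 0.65 ± 0.32 that did not pass (edgeR adjusted p = 0.0984). Eif4ebp1, the inhibitor of eIF4E that mTOR phosphorylates, rose over its body with 44 and 26.4 CPM in KO and 18.2 and 14.3 CPM in controls (log2 fold 1.11 ± 0.35, edgeR adjusted p = 0.0104).

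For eIF5A the contrast was large. Eif5a (Entrez 276770, chromosome 11, 69916712 to 69921958, minus strand) shared the largest gene body log2 fold of the members with Eif1. It had 291 and 136 reads in KO libraries and 15 and 19 in controls, 53.7 and 20.2 CPM in KO and 1.48 and 1.88 CPM in controls. The means were 37 ± 23.7 CPM in KO and 1.68 ± 0.281 CPM in controls (SD, n = 2 each), the log2 fold was 4.44 ± 0.47, and the edgeR adjusted p was 1e-11. Upstream the levels were 157 and 76.5 CPM in KO and 13.7 and 26.2 CPM in controls (log2 fold 2.54 ± 0.54, edgeR adjusted p = 5.9e-05).

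Eif5a2, the paralog with a narrower expression, had 12.4 and 10.4 CPM over its body in KO and 11.8 and 13.5 CPM in controls, which overlap (log2 fold -0.16 ± 0.42, edgeR adjusted p = 0.784, and 0.5 with receptor scaling). Eif6, which keeps the ribosomal subunits apart, rose over its body with 16.6 and 6.4 CPM in KO and 3.06 and 3.16 CPM in controls (log2 fold 1.87 ± 0.52, edgeR adjusted p = 0.00323), and its upstream log2 fold of 0.63 ± 0.45 did not pass (edgeR adjusted p = 0.251).

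Of the 7 genes grouped by symbol under eEF1 and eEF2, 5 of 6 tested rose upstream (Eef1e1 among them) and 4 of 7 over the body. Eef2 (Entrez 13629, chromosome 10, 81176631 to 81182509, plus strand) had 20.5 and 5.81 CPM over its body in KO and 1.28 and 0.988 CPM in controls, a log2 fold of 3.51 ± 0.58 (edgeR adjusted p = 2.4e-06). Upstream its fitted log2 fold of 3.51 ± 0.77 (edgeR adjusted p = 8.6e-05) was the highest of the members. It had 28 reads there over both KO libraries and 3 over both controls, a ratio of 12.4 with an exact 95% interval of 3.82 to 63.5 for counting error only. Eef1a1, which encodes the abundant form of eEF1A, had 76.4 and 52.5 CPM upstream in KO and 8.56 and 18 CPM in controls, a log2 fold of 2.26 ± 0.48 (edgeR adjusted p = 5.9e-05). Over its body it had 25 and 14 reads in KO libraries and 4 and 11 in controls (log2 fold 2.14 ± 0.63, edgeR adjusted p = 0.00573). Over the bodies of Eef2 and Eef1a1 both controls lay below the minimum count for testing, so their direction was nearly fixed by that filter. RefSeq lists pseudogenes of Eef1a1, Eef2, Eif1 and Eif2s3x, and reads shared with such copies make their body counts uncertain.

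Eef1a2, the form used in neurons and muscle, had 25.8 and 53.5 CPM upstream in KO and 72.8 and 75.2 CPM in controls, without overlap, a log2 fold of -0.89 ± 0.49 that did not pass (edgeR adjusted p = 0.13). Over its body the levels were 5.36 and 7.15 CPM in KO and 9.47 and 8.7 CPM in controls (log2 fold -0.53 ± 0.48, edgeR adjusted p = 0.375, and 0.1 with receptor scaling). In CPM per kb of gene body, Eef1a2 had 0.574 and 0.766 in KO and 1.02 and 0.933 in controls, and Eef1a1 had 1.41 and 0.637 in KO and 0.121 and 0.332 in controls. Per kb, Eef1a1 was thus the higher of these paralogs in KO replicate 1, and Eef1a2 in KO replicate 2 and both controls.

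Among the enzymes that modify elongation factors, Eef2kmt, a lysine methyltransferase of eEF2, had 40.3 and 14.6 CPM over its body in KO and 4.34 and 4.45 CPM in controls (log2 fold 2.63 ± 0.44, edgeR adjusted p = 2.5e-06). It was the only one of the 6 to pass over the body. Eef2k, the kinase that inhibits eEF2, had 162 and 102 CPM over its body in KO and 102 and 84.1 CPM in controls (log2 fold 0.5 ± 0.29, edgeR adjusted p = 0.16). Upstream, Eef1akmt2 and Eef1akmt3, methyltransferases of eEF1A, rose by log2 folds of 1.38 and 1.5.

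Eif2c5 and Eif4a3l1 were the only members that fell past the threshold in any region class. Eif2c5 (Entrez 286951, chromosome X, 140776199 to 140796944, plus strand) bears a symbol of the Eif2c series, whose other mouse genes are now named as Argonautes. It had 7.86 and 20.8 CPM upstream in KO and 51.4 and 32.7 CPM in controls, a log2 fold of -1.54 ± 0.5 (edgeR adjusted p = 0.00942), and 7.02 and 9.23 CPM over its body in KO and 21.5 and 15.1 CPM in controls, a log2 fold of -1.17 ± 0.42 (edgeR adjusted p = 0.0232). Eif4a3l1 (Entrez 668137, chromosome 6, 136327539 to 136329983, plus strand), a copy of the exon junction helicase gene Eif4a3, had 20.2 and 30.6 CPM upstream in KO and 50.5 and 59.7 CPM in controls, a log2 fold of -1.11 ± 0.47 (edgeR adjusted p = 0.0467). Over its body it had 4 and 5 reads in KO libraries and 26 and 32 in controls (log2 fold -1.93 ± 0.65, edgeR adjusted p = 0.0154). Both KO libraries lay below the minimum count for testing there, so a fall was nearly fixed by that filter. All calls of Eif2c5 and Eif4a3l1 were lost when libraries were scaled on receptor genes: upstream the log2 folds were then -0.67 and -0.23, and over the body -0.52 and -1.32.

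**Figure D2:**
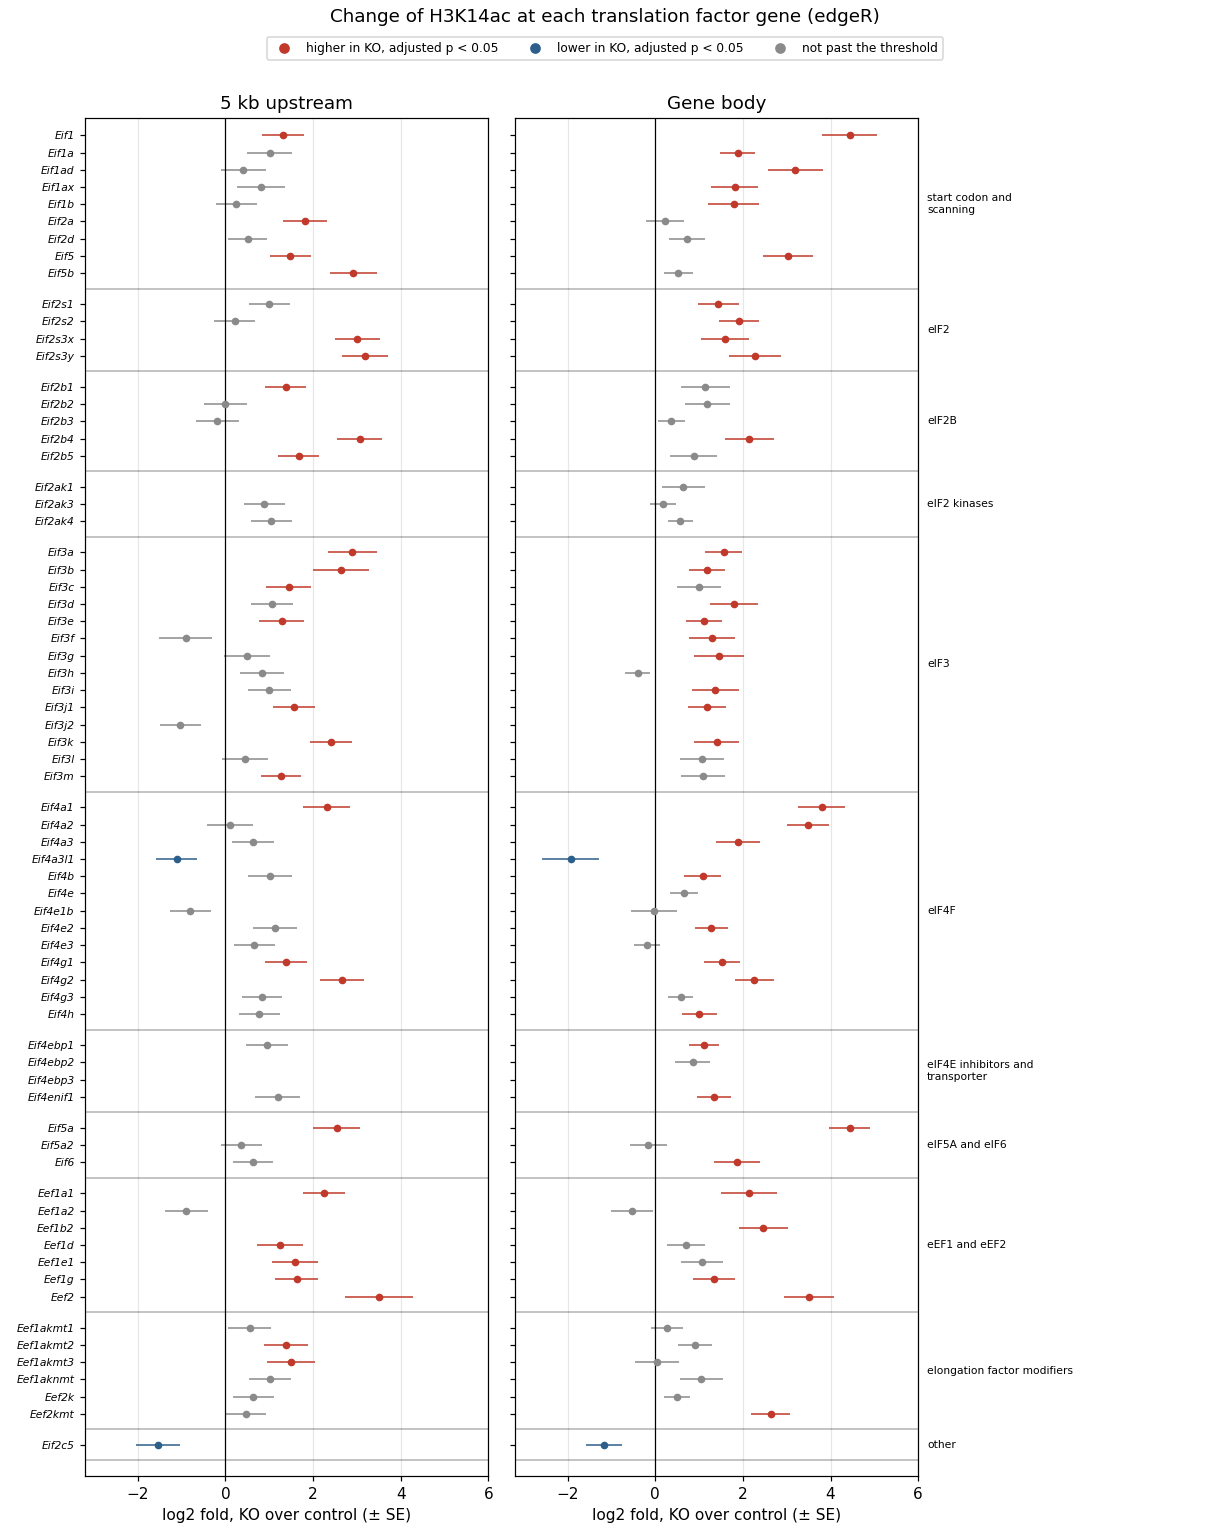
Log2 fold of H3K14ac, KO over control, with its standard error for each member, upstream on the left and over gene bodies on the right, grouped by role. Points past the edgeR threshold are red (higher in KO) or blue (lower in KO), and the 4 eIF2 genes are all red over gene bodies while the 3 eIF2 kinases are all grey.

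In rank among all genes tested, the median member stood higher in KO than in controls. Ranked by CPM per kb over gene bodies, the median member was at the 42.6th percentile in KO and at the 17.7th in controls. Upstream the median ranks were 60.0 in KO and 31.2 in controls, close to the 60.1 in KO and 34.9 in controls of all genes with a CpG-rich start. Eif5a was at the 98.5th percentile of gene bodies in KO and the 15th in controls, Eif1 at the 97.9th in KO and the 9.46th in controls, and Eif4a1 at the 95.5th in KO and the 8.87th in controls. These are members with the largest folds. Both controls of Eif1 and control replicate 1 of Eif4a1 lay below the minimum count for testing, so their low control ranks partly follow from that filter. The members' medians share this limit where a member was tested because of its KO reads. Genes with a CpG-rich start in general had median gene body ranks of 50.3 in KO and 35.6 in controls. Receptor genes, which are short and of which 549 of 1485 passed the count filter, were compared without that filter: the median gene body level of all 69 members was 1.02 and 0.72 CPM per kb in KO libraries and 0.314 and 0.377 in controls, and that of all 1485 receptor genes was 0.374 and 0.465 in KO libraries and 0.525 and 0.527 in controls. The members' median was thus above that of receptor genes in both KO libraries and below it in both controls.

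**Figure D3:**
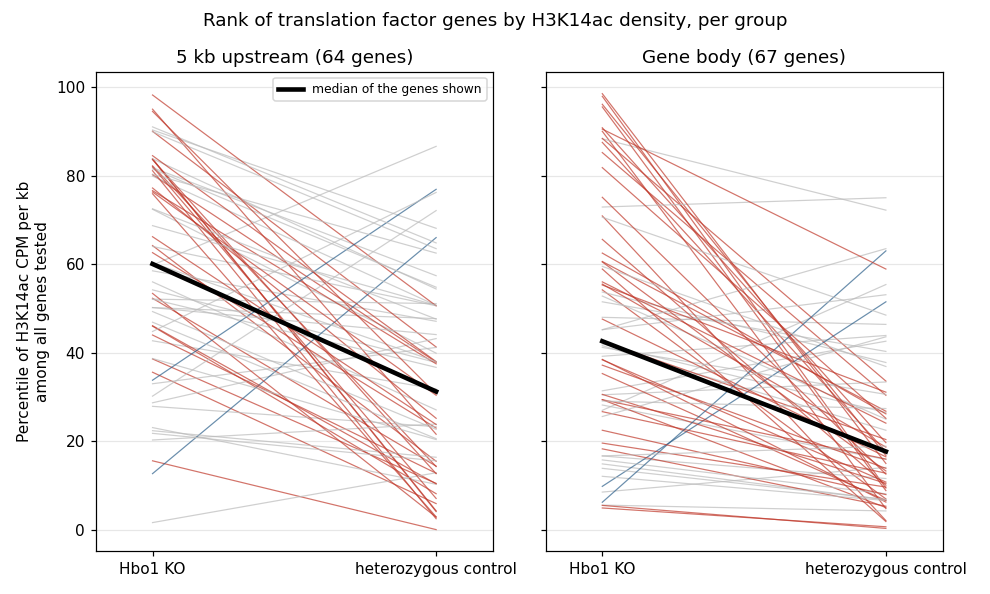
Percentile of each member among all genes tested, by mean CPM per kb, in KO (left end of a line) and heterozygous control (right end), for 64 upstream regions and 67 gene bodies. Red lines are members higher in KO, blue lines lower and grey lines not past the threshold, and the thick line joins the medians, 60.0 in KO and 31.2 in controls upstream and 42.6 in KO and 17.7 in controls over gene bodies.

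Short members had larger gene body folds than long ones. Of 21 tested members up to 10 kb, a split chosen after the values were seen, 15 (71.4%) rose and 1 fell, with a median log2 fold of 1.87. Of 46 longer ones 22 (47.8%) rose and 1 fell, with a median of 1.07. Across 67 members gene body length and log2 fold had a Spearman rho of -0.52, and across the 54 with a CpG-rich start it was -0.66, as descriptions over genes that share the same 4 libraries. All 9054 genes with a CpG-rich start gave a rho of -0.6, and of those up to 10 kb 63.8% rose, against 26.4% of longer ones. A relation to length was thus also seen outside the translation factors. Eif5a, Eif1, Eif4a1, Eef2 and Eif4a2 were all between 2.1 and 6.65 kb long, whereas Eif4g3, at 214 kb, had a log2 fold of 0.58 ± 0.29 (edgeR adjusted p = 0.106).

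**Figure D4:**
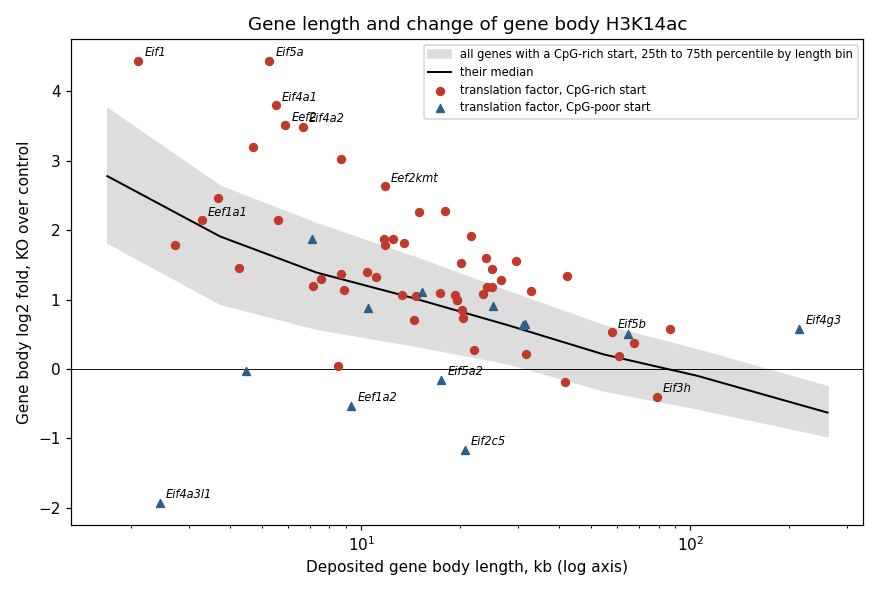
Gene body log2 fold, KO over control, against deposited gene length in kb (log axis), with members as red circles (CpG-rich start) or blue triangles (CpG-poor start) over the median and the 25th to 75th percentile of all genes with a CpG-rich start. The median of all such genes declines from 2.78 for lengths up to 2.5 kb to -0.63 beyond 160 kb, and Eif5a and Eif1 lie above the band at 4.44.

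Sequence at the start site went with the direction of change. Of the 69 members 54 had a CpG-rich start, and of these 25 of 52 tested rose upstream and 35 of 54 over the body, with none lower. Of the 15 with a CpG-poor start, 2 of 12 tested rose upstream (Eif2b5 and Eef1akmt2) and 2 fell, and 2 of 13 rose over the body (Eif4ebp1 and Eif6) and 2 fell. Among all genes with a CpG-poor start 12.0% rose and 21.4% fell upstream. Across members the Spearman rho of CpG ratio with log2 fold was 0.2 upstream (64 genes) and 0.41 over the body (67 genes), as a description, against 0.52 and 0.43 across all genes. With a loess correction for the GC content of each region edgeR called 27 members higher upstream and 41 over gene bodies.

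**Figure D5:**
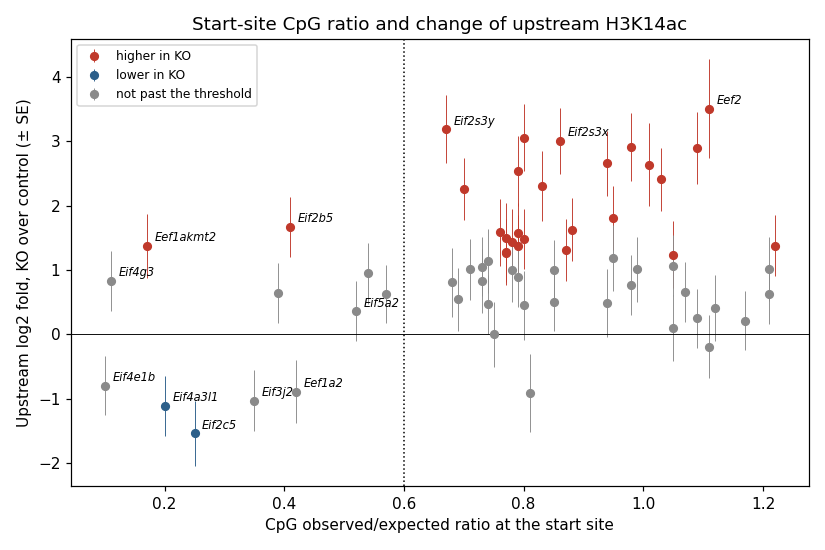
Upstream log2 fold, KO over control, with its standard error, against the CpG observed over expected ratio around the start site for 64 members. The dotted line marks the ratio of 0.6 that separates CpG-poor from CpG-rich starts, and Eif2c5 and Eif4a3l1, the members that fell, lie left of it.

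To show this contrast in letters, the 150 bases before the annotated start are given for 5 members with large rises and for the members that fell, from RefSeq on GRCm38.p6, 5′ to 3′ on the gene's strand, with each CpG in capitals. They were chosen after the values were seen. The coordinates are chr11:69921959-69922108 (minus) for Eif5a, chr11:100319799-100319948 (plus) for Eif1, chr11:69672424-69672573 (minus) for Eif4a1, chr10:81176481-81176630 (plus) for Eef2, chrX:94212652-94212801 (minus) for Eif2s3x, chrX:140776049-140776198 (plus) for Eif2c5 and chr6:136327389-136327538 (plus) for Eif4a3l1.
Eif5a: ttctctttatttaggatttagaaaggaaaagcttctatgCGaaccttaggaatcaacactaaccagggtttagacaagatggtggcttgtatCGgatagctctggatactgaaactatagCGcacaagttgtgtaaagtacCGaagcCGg
Eif1: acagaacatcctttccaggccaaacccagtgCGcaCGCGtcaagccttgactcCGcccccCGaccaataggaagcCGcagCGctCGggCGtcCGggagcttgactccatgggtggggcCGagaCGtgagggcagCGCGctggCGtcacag
Eif4a1: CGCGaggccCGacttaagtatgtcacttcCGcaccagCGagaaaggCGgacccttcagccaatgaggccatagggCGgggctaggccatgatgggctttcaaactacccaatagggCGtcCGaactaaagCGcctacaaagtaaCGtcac
Eef2: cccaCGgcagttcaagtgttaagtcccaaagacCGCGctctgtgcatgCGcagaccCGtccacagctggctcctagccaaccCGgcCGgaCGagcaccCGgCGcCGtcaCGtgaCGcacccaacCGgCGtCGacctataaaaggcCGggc
Eif2s3x: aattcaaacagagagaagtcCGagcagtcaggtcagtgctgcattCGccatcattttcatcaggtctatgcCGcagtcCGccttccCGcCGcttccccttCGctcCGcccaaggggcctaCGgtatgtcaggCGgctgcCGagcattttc
Eif2c5: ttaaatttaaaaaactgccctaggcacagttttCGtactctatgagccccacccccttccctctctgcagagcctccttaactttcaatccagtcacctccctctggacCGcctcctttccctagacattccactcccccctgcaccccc
Eif4a3l1: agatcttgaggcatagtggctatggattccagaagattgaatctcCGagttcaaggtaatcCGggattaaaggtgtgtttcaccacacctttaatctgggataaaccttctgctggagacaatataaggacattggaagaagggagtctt
Eef2 has 17 CpGs in this stretch, Eif1 15, Eif4a1 11, Eif2s3x 11 and Eif5a 5, against 2 each in Eif2c5 and Eif4a3l1. The median over all genes with a RefSeq promoter entry is 4. Eif5a, with the largest gene body rise, is thus close to that median here, and its CpG ratio of 0.79 over the wider window puts it among the CpG-rich starts.

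Downstream of the gene end the changes were fewer. Start sites of other genes were looked for only in the upstream stretches, so downstream reads cannot be given to a single gene. Of 53 members tested 9 (17.0%) were higher in KO and 1 lower, against 10.8% higher and 2.3% lower among all 21566 regions (9.81% and 4.37% with library totals, 9.73% and 0.283% with receptor scaling), and the median log2 fold was 0.57, against -0.04. Both KO libraries lay above both controls at 25 members and below both at 6 (29.9% and 32.7% of all genes). Eif2ak4 had 138 and 70.9 CPM in KO and 17.6 and 18.7 CPM in controls, a log2 fold of 2.5 ± 0.4 (edgeR adjusted p = 0.00083). Eif3a had 61.9 and 32.2 CPM in KO and 7.65 and 8.58 CPM in controls, a log2 fold of 2.49 ± 0.48 (edgeR adjusted p = 0.00241). These 2 calls held with any 1 library left out. Downstream calls as a whole became more numerous without KO replicate 2 and fewer without any other library, among the members and among all genes. The members' median log2 fold was 0.43 without KO replicate 1 and 0.79 without KO replicate 2. It was 0.37 without control replicate 1 and 0.94 without control replicate 2. The medians of all genes lay between -0.04 and 0.0. Eef1g, the gamma subunit of eEF1, had 317 and 90.2 CPM in KO and 29.8 and 38.2 CPM in controls (log2 fold 2.57 ± 0.61, edgeR adjusted p = 0.00881). The largest downstream fold was that of Eif5a, with 31 and 19.3 CPM in KO and 4.59 and 1.56 CPM in controls (log2 fold 2.95 ± 0.66, edgeR adjusted p = 0.00603). Its groups rest on 17 and 15 reads in KO libraries and 6 and 2 in controls. Both controls of Eif5a, and both of Eif3a, lay below the minimum count for testing downstream. Eif3g, an RNA-binding subunit of eIF3, had 71 and 33.5 CPM in KO and 13.8 and 13.3 CPM in controls (log2 fold 1.91 ± 0.44, edgeR adjusted p = 0.00769). Eif4g1 had 133 and 51.6 CPM in KO and 16.1 and 35.9 CPM in controls (log2 fold 1.8 ± 0.46, edgeR adjusted p = 0.0142), a pair of groups that lie close without overlap. Eif1, Eif4a3 and Eef1akmt3 also rose, with log2 folds of 1.84, 1.98 and 1.57.

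Eif2c5 fell downstream as well, with 9.1 and 30.9 CPM in KO and 84.9 and 42.1 CPM in controls (log2 fold -1.58 ± 0.48, edgeR adjusted p = 0.0353). The other 16 members had too few reads downstream to be tested, among them Eef1a1 (0 and 6 reads in KO libraries, 0 and 1 in controls) and Eif4a1, which had 0 reads in all 4 libraries.

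Across the 3 region classes 48 of the 68 members tested in at least 1 class rose in at least 1 (70.6%), against 33.8% of all genes and 56.6% of those with a CpG-rich start. Of the 69 members 19 passed in none. Eif1, Eif5a, Eif3a, Eif4g1 and Eef1g rose in all 3, and Eif2c5 was lower in all 3. Upstream and gene body calls coincided as higher at 17 members, while 10 rose upstream without a call over the body. At 19 the body rose, with an upstream region that was tested and did not pass. Matching joint shares for all genes, or for those with a CpG-rich start, are not given here. Whether these joint counts, or the changes in all 3 region classes, are unusual was thus not tested. The upstream stretch holds the start of another gene at 10 members. Of the 9 of these tested 4 rose (44.4%, against 50.3% of all genes with such a start), and of the 55 tested without one 23 rose (41.8%, against 21.0% of all genes without one). Most members have a CpG-rich start, unlike all genes, and 43.2% of all genes with a CpG-rich start rose upstream.

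Many other genes of protein synthesis rose too. For the lists that follow, the shares higher were 24.0% of all genes and 43.2% of those with a CpG-rich start upstream, 23.1% and 36.5% over the body, and 10.8% and 14.8% downstream. Of 20 cytosolic aminoacyl-tRNA synthetase genes 13 rose upstream (65.0%), 13 over the body (65.0%) and 5 of 18 tested downstream (27.8%), and none fell. Gene body rises included Mars1, with 194 and 131 reads in KO libraries and 43 and 58 in controls (log2 fold 2.46 ± 0.42, edgeR adjusted p = 4e-06). Of the termination, recycling and rescue genes 8 of 11 tested rose upstream (72.7%), 6 of 12 over the body (50%) and 1 of 10 downstream (10%), with none lower. Gtpbp2, a ribosome rescue factor, had 131 and 57 reads upstream in KO libraries and 8 and 7 in controls (log2 fold 4.03 ± 0.58, edgeR adjusted p = 1.8e-09). Both controls lay below the minimum count for testing there.

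Regulators of initiation rose at 16 of 27 tested upstream regions (59.3%), 16 of 29 gene bodies (55.2%) and 9 of 27 downstream regions (33.3%), with none lower. Those that rose include genes that raise translation and genes that restrain it. Atf4, the transcription factor of the integrated stress response, had 98 and 43 reads over its body in KO libraries and 5 and 11 in controls (log2 fold 3.92 ± 0.61, edgeR adjusted p = 5.7e-07). Ppp1r15a, the phosphatase subunit that reverses eIF2 phosphorylation, had 186 and 74 reads in KO libraries and 20 and 17 in controls (log2 fold 3.62 ± 0.51, edgeR adjusted p = 4.7e-08). Over the bodies of Atf4 and of Dhps (named next) both controls lay below the minimum count for testing, and for Dohh control replicate 1 did. Dohh and Dhps, the enzymes that make the hypusine residue of eIF5A, rose over their bodies by log2 folds of 3.05 ± 0.59 (edgeR adjusted p = 4e-05) and 3.29 ± 0.66 (edgeR adjusted p = 8.1e-05). Both were picked after their values were seen, and the direction over the Dhps body was nearly fixed by that filter. Upstream, Dohh had 38 and 16 reads in KO libraries and 3 and 3 in controls. Dhps had too few reads to test there, with 2 and 2 in KO libraries and 6 and 5 in controls.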

How the data were processed

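Whole-number read counts per Entrez gene were deposited for 2 KO and 2 heterozygous control H3K14ac libraries, and per the file headers the authors counted 3 classes of region. FeatureCounts and mm10 are named in the submitters' processing notes. The aligner, annotation release, duplicate and multi-mapping handling, read filters and any spike-in are not given in the sources used here. Of the 5 libraries the HBO1 one was not used. Levels per kb used the gene length that the authors deposited with the counts. Reads of CUT&Tag do not mark strand, so overlapping genes share reads.

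Symbols came by Entrez identifier from RefSeq GRCm38.p6 (93.0% of genes matched), as did positions and CpG ratios (92.7%). Series tables and per-library tables held the same values (0 differed). Each region class was fitted whole with edgeR 4.0.16 in R 4.3.3: filterByExpr (minimum count 10, minimum total 15), TMM, glmQLFit and glmQLFTest with no covariate, Benjamini-Hochberg adjustment over all genes tested and a threshold of 0.05. Of the 69 members 64, 67 and 53 passed the filter upstream, over gene bodies and downstream. The minimum is scaled to library size and must be reached in 2 libraries. A member that passed it through its KO reads alone could hardly fail to be higher. The same holds, less strictly, where only a single control reached it. Beyond the cases marked above, this applies upstream at Eef1a1 and Eif4g2. The standard error is the log2 fold over the square root of F. CPM values are TMM-scaled. On simulated counts with 4-fold changes the fit recovered 63.1% of changed genes upstream (22765 genes tested), 70.5% over gene bodies (21144) and 59.1% downstream (20906). Unchanged genes made up 6.8% of the calls upstream, 2.8% over gene bodies and 7.3% downstream. Only 200 genes were changed, as many up as down. The simulation thus does not show how TMM behaves where far more genes differ, as here. Replicates of a group differed by more than counting noise, so none was treated as a library deposited again. PCR copies are not independent molecules, so the interval given covers counting error alone. Summaries and plots used matplotlib 3.10.9, pysam 0.24.0, scipy 1.17.1, numpy 2.4.6 and pandas 2.3.3 in Python 3.11.15.

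The members, role groups and gene lists were chosen with earlier results of these data known. Named members were the 8 with the smallest p among those past the threshold in a region class (both KO libraries on one side of both controls), every member that fell, and 16 anchor members taken whatever their values: Eef1a1, Eef1a2, Eef2, Eif5a, Eif5a2, Eif1, Eif2s1, Eif4e, Eif4a1, Eif4g1, Eif4ebp1, Eif3a, Eif2b1, Eif5b, Eif6 and Eef2k. Others named in the text (such as Eif1b, Eif3f, Eif3h, Eif3j1, Eif3j2, Eif4g3 and the genes of the wider lists) were picked after their values were seen. Alternatives were a GC correction (loess span 0.3), scaling by library totals, by totals pooled over region classes, by receptor genes or by DESeq2 1.42.0 size factors, the DESeq2 Wald test, a minimum mean count of 50 or no filter, the replicate number as a block, and the removal of each library in turn.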

Additional observations from a re-analysis of the deposited data

How the results depend on the processing

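Against 29 calls among the members upstream, 39 over gene bodies and 10 downstream, the counts under alternatives moved by more than 1.5 times as follows. Upstream there were 45 with totals pooled over region classes, 8 of only 9 tested with a mean count of at least 50 and 17 with the DESeq2 Wald test. Over gene bodies there were 23 of 42 tested with a mean count of at least 50. Downstream there were 6 with no filter, 1 of 4 tested with a mean count of at least 50 and 6 with the DESeq2 Wald test. With 1 library left out the counts ranged from 0 to 5 for upstream regions, from 9 to 55 for gene bodies and from 4 to 17 for downstream regions, and the lone library of a group was then assumed to vary like the other group. With the replicate number as a block they were 16 upstream, 18 over gene bodies and 9 downstream, but same-numbered libraries did not deviate together (correlations of deviations -0.284, -0.359 and -0.22) and the labels do not say that a number marks a shared batch. Library numbers in the column headers lie closer within a replicate number than across, and what they record is not given, so a shared processing set was not tested. A crossed block, added after seeing the data, gave 42, 53 and 17. Library totals downstream called 7 higher and 3 lower. Relative to TMM, the all-gene median log2 fold shifted under receptor scaling by 0.94 upstream, 0.65 in gene bodies and 0.31 downstream, under library totals by -0.18, 0.35 and -0.2, and under pooled totals by 0.56, 0.22 and -0.01. Of the 29, 39 and 10 calls, 18, 26 and 6 held under every scaling tried, and none changed sign under any alternative. Signs turned at members that had not passed; all members were compared under receptor scaling, and the named ones under each alternative. Receptor scaling gave log2 folds of 0.74 for Eif2b3 and 0.12 for Eif4e1b upstream, and of 0.26 for Eif3h, 0.61 for Eif4e1b and 0.46 for Eif4e3 over the body, all negative with TMM. Eif5a2 over its body had log2 folds of 0.19 (library totals), 0.05 (pooled totals), 0.5 (receptor scaling), 0.03 (GC correction) and -0.26 to 0.01 (1 library left out), and Eef1a2 0.1 (receptor scaling). Downstream, Eif4e had 0.03 (DESeq2 size factors, and the same with the Wald test), 0.29 (receptor scaling), 0.1 (GC correction), -0.18 to 0.18 (1 library left out, positive without KO replicate 2 and without control replicate 2) and 0.01 (crossed block), Eef1a2 had 0.06 and Eif4ebp1 0.05 (receptor scaling), and Eif2b1 -0.71 to 1.29 (1 library left out, the negative value without KO replicate 1). The cause of these shifts was not tested. Eif4e upstream, and Eef1a1, Eef2 and Eif4a1 downstream, had too few reads to test, for a cause that was not tested, and groups of 2 allow no outlier check.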
